A study of Mus musculus with 66 samples.

Results

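Receptor protein tyrosine phosphatases are membrane proteins that remove phosphate from tyrosine residues, and 10 of their genes (Ptprd, Ptprs, Ptprf, Ptprk, Ptprm, Ptprt, Ptprg, Ptpro, Ptprj and Ptprn2) were followed through lists of chromatin regions gained or lost after neuronal stimulation. The regions were chosen by the gene that the authors' lists assign to them, so every member had already been called as different between 2 groups, and its direction and size are a description with no test. The rule found 157 regions among the 57678 listed in the 7 lists. Of these, 22 were H3.3 regions in 6 of the genes, 135 were CATCH-IT regions in all 10 genes, and the list for H3.1/2, which held 7 regions in all, had 0. In cultured neurons after KCl, 0 of 3 H3.3 regions of these genes were gained at 30 min, in a list with 20.1% gained. At 2 hr 2 of 6 were gained, in a list with 14.4% gained, and at 5 hr 0 of 2, in a list with 44.2% gained. The rest were lost, which was also the commoner direction in each of these lists. After enriched housing, 1 of 4 regions was gained in NeuN+ nuclei, in a list with 71.8% gained. In NeuN- nuclei 5 of 7 were gained, close to the 70.7% of that list. With so few regions per list, these are counts only. No region of one list overlapped a region of another.

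The receptor phosphatases pair a cell surface segment, often built from immunoglobulin and fibronectin repeats, with phosphatase domains inside the cell. Ptprd, Ptprs and Ptprf form the LAR family, whose members sit in axons and presynaptic terminals and bind postsynaptic adhesion proteins such as the Slitrk proteins and Il1rapl1. Ptprk, Ptprm and Ptprt are cell adhesion molecules that bind their own kind on the next cell. Ptprg has a carbonic anhydrase-like segment and binds contactins. Ptpro and Ptprj carry chains of fibronectin repeats and a single phosphatase domain, and Ptprn2 (phogrin) is a component of dense-core vesicles with little or no activity towards tyrosine.

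H3.3 is a variant of histone H3 that is built into chromatin at any time in the cell cycle and so is the main new H3 in neurons, which no longer divide. All cells and animals were mouse, of strain C57bl/6. Primary cortical neurons were taken at E16.5, kept 8 days in vitro, and either depolarised with isotonic KCl for 30 min, 2 hr or 5 hr or left unstimulated for the same time. H3.3 was immunoprecipitated at each time and H3.1/2 at 5 hr. CATCH-IT, which pulls down histones labelled while newly made, was run at 5 hr of KCl and in unstimulated cells. Hippocampal nuclei of mice about 7 weeks old were sorted by the neuronal protein NeuN into NeuN+ and NeuN- fractions, from animals kept 4 weeks in environmental enrichment or normally housed, and H3.3 was immunoprecipitated. Each list gave 3 values per group, except NeuN+ with 2. The control group of 30 min has 4 libraries in the labels, 1 of them a repeat, and 3 values. The labels speak of biological triplicates in vitro and duplicates in vivo, although the NeuN- list had 3 values per group.

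Each value is the authors' normalised read count of a library in the region, and it was always a whole multiple of what 1 read was worth. That worth ran from 0.758 to 1.36 in the H3.3 culture libraries, from 0.785 to 1.51 in NeuN+, from 0.542 to 2.64 in NeuN- and from 0.316 to 2.72 in CATCH-IT, so a region's values rest on few reads. Over the 22 H3.3 regions, the group with more H3.3 had 17 to 70 reads in all its libraries together, and the other group had 1 to 21. In the NeuN-, CATCH-IT, 2 hr and 30 min lists each group had a sequencing lane number to itself, so lane and treatment cannot be told apart. In the 5 hr H3.3 list, 1 KCl and 1 control library carry each of 3 lane numbers, but their titles say that they had no index, and the labels do not say that they shared a run. The 4 NeuN+ libraries have different lane numbers, 6 and 7 for enriched and 3 and 5 for normal housing. No lane number is shared by both groups, so lane and housing cannot be told apart there either. The lists name no library beside its value, so no values by lane number could be formed. Lists leave out changes under 3-fold, so a region absent from a list is not shown to be unchanged. All coordinates are mm9.

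The sequences of a few regions show what kind of DNA the lists point to. First come neighbouring regions of opposite direction in Ptprg (NeuN+ nuclei, enriched against normal housing) and in Ptprd (2 hr of KCl against control). They are given 5′ to 3′ on the plus strand, with CpG dinucleotides in capitals, and for the Ptprg gained region the central 300 bases are shown.
Ptprg gained (chr14:12849171-12849470): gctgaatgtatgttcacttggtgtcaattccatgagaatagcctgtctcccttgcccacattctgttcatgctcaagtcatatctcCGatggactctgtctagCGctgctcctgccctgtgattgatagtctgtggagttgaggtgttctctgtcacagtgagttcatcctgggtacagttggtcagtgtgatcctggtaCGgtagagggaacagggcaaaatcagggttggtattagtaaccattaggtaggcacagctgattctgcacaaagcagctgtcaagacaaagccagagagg
Ptprg lost (chr14:12838541-12838780): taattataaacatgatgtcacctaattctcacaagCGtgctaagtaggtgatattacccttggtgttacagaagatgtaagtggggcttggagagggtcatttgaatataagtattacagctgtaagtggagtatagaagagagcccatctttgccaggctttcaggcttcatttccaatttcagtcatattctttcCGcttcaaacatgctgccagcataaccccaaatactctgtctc
Ptprd gained (chr4:77452061-77452260): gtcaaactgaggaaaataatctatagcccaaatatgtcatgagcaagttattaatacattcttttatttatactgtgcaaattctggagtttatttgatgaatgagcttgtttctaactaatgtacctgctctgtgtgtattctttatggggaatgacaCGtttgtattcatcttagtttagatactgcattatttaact
Ptprd lost (chr4:77468701-77468900): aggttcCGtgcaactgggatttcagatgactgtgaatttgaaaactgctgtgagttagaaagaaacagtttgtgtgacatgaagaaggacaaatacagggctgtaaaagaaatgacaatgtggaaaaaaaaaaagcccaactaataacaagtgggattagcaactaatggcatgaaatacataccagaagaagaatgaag
These 4 intronic stretches hold 1 to 3 CpG each, and their G+C content is 48.7%, 40.8%, 31.0% and 37.0% in the order printed.

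By contrast, the CATCH-IT region gained after KCl at the start of Ptprk is CpG-rich, as shown by its central 300 bases, again with CpG in capitals.
Ptprk gained, CATCH-IT (chr10:27794321-27794620): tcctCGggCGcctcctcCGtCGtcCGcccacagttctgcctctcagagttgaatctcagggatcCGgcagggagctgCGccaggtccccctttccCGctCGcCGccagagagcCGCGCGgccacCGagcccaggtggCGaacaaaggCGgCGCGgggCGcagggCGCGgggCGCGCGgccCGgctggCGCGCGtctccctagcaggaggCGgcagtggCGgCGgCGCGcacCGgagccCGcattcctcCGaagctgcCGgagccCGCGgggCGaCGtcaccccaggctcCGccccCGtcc
These 300 bases hold 43 CpG at 76.3% G+C and end just before the annotated gene start at position 27794626. The whole region (chr10:27794301-27794640) spans that start and has 73.8% G+C.

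A pair of Ptprn2 regions carries other features. In the region lost from NeuN+ nuclei, capitals mark the only match to the AP-1 motif TGANTCA among the 22 H3.3 regions. In the region gained in NeuN- nuclei, capitals mark the 49 bases of exon 7 that lie inside the region, and intron follows.
Ptprn2 lost, NeuN+ (chr12:117837341-117837540): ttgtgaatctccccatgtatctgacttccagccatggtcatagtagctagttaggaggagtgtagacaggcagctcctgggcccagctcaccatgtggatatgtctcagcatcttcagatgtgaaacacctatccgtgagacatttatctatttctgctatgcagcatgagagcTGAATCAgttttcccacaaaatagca
Ptprn2 gained, NeuN- (chr12:118110561-118110760): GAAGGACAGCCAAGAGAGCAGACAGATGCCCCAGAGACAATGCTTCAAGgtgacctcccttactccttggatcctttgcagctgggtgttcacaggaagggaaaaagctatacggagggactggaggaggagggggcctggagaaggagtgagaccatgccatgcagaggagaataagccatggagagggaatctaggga
TGANTCA, searched on both strands in the central 200 bases, is in 5.42% of all NeuN+ regions. A match is a description of letters and no evidence of binding. CACGTG, an E-box, was in 0 of the 22, and TGACG, the first letters of the cAMP response element, was in 1, the gained region of Ptprk in NeuN- nuclei, against 4.01% of all regions of that list.

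**Figure D1:**
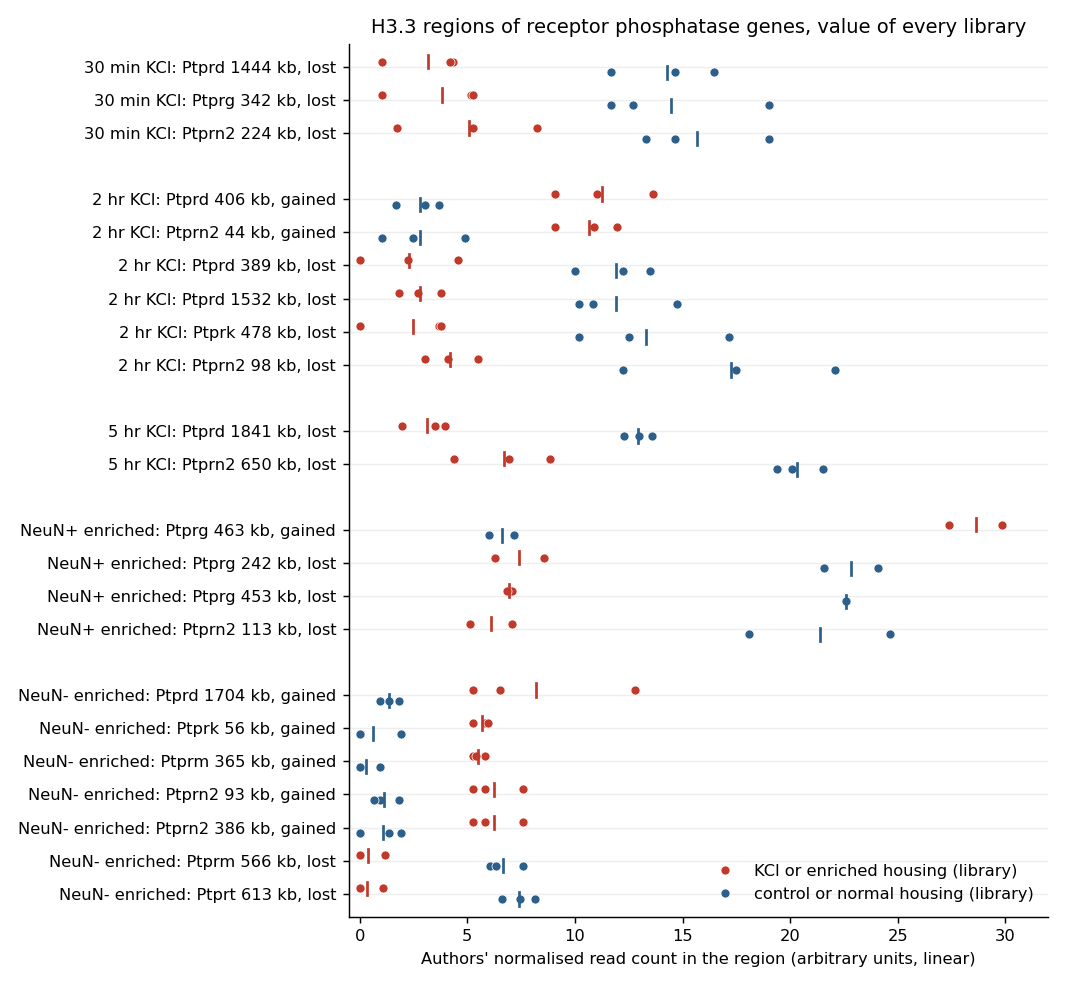
Each row is 1 H3.3 region of a receptor phosphatase gene, named by list, gene and distance from the gene start in kb. Points are libraries, short bars are group means, and the horizontal axis is the authors' normalised read count on a linear scale. In all 22 regions the libraries of the groups do not overlap, as in 100% of the regions of each of these lists.

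Ptprn2 had the most H3.3 regions of the 10 genes, 7, of which 3 were gained and 4 lost, and it was the only one of the 10 with a region in all 5 H3.3 lists that held any member. After 30 min of KCl, a region in intron 2, 224 kb from the gene start (chr12:117947781-117947980), had 1.73, 5.26 and 8.23 in KCl libraries, against 19.0, 13.3 and 14.7 in control libraries. The KCl libraries spread widely here, with 2, 5 and 8 reads, but all lay below the control libraries, which had 15 or 16 reads each. Without the first KCl library the control mean was 2.32-fold the KCl mean, under the listing threshold of 3-fold, and without the first control library it was 2.76-fold. After 2 hr, 2 regions of Ptprn2 moved in opposite directions. In intron 1, 44.4 kb from the start (chr12:117768461-117768660), KCl libraries had 11.9, 9.09 and 10.9, against 1.02, 2.50 and 4.91 in control libraries. In intron 2, 97.8 kb from the start (chr12:117821841-117822140), KCl libraries had 5.51, 3.03 and 4.09, against 12.2, 17.5 and 22.1 in control libraries. The gained region averaged 10.6 ± 1.44 in KCl and 2.81 ± 1.96 in control libraries (SD, n = 3 each), and the ratio of means was 2.87-fold without the first control library, which held 1 read. After 5 hr, a region in intron 12, 650 kb from the start (chr12:118374541-118374780), had 8.85, 4.39 and 6.94 in KCl libraries, against 20.1, 21.5 and 19.4 in control libraries. That difference was 3.02-fold, so leaving out the second library of KCl (2.58-fold) or of control (2.93-fold) took it below the threshold.

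In the hippocampus the Ptprn2 regions of the sorted fractions went opposite ways. In NeuN+ nuclei a region in intron 2, 113 kb from the start, had 7.06 and 5.14 in enriched libraries, against 18.1 and 24.7 in normally housed libraries. It was 2.96-fold lower without the second normally housed library. In NeuN- nuclei a region in intron 1, 92.7 kb from the start (chr12:117816761-117816960), had 5.82, 5.28 and 7.59 in enriched libraries, against 0.950, 0.680 and 1.81 in normally housed libraries. The region over exon 7, 386 kb from the start, had the same 5.82, 5.28 and 7.59 in enriched libraries, against 1.90, 1.35 and 0 in normally housed libraries. In reads, both NeuN- regions had 5, 2 and 14 in enriched libraries. In such bulk fractions a change in the share of a cell type and a change of H3.3 within cells cannot be told apart. The difference between the fractions was not tested, and the regions are not the same stretch of DNA. Some of the regions in introns 1 and 2 lay near each other. The NeuN- gained region was 4.88 kb from the region lost after 2 hr of KCl, which in turn was 15.2 kb from the region lost in NeuN+ nuclei. Others in these introns lay further off. The region gained at 2 hr was 48.1 kb from the NeuN- gained region, and the region lost at 30 min was 110 kb from the NeuN+ lost region.

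Ptprd, the LAR family member with the longest gene (2271 kb), had 6 H3.3 regions, 2 gained and 4 lost, all intronic. After 30 min of KCl, a region in intron 8, 1444 kb from the start (chr4:76413641-76413840), had 4.32, 4.21 and 1.03 in KCl libraries, against 16.48, 11.66 and 14.65 in control libraries. This was a mean of 3.19 ± 1.87 in KCl and 14.3 ± 2.43 in control (SD, n = 3 each). After 2 hr, 3 regions were listed. In intron 2 the gained region at 406 kb had 11.0, 9.09 and 13.6 in KCl libraries, against 3.05, 1.67 and 3.68 in control libraries. The lost region 16.4 kb away, at 389 kb, had 4.59, 2.27 and 0 in KCl libraries, against 12.2, 10.0 and 13.5 in control libraries. In intron 9, at 1532 kb (chr4:76325661-76325880), KCl libraries had 1.84, 3.79 and 2.72, against 10.2, 10.8 and 14.7 in control libraries. After 5 hr, a region in intron 10, at 1841 kb (chr4:76016741-76016940), had 1.97, 3.51 and 3.97 in KCl libraries, against 13.0, 12.3 and 13.6 in control libraries. In NeuN- nuclei, a region also in intron 10, at 1704 kb (chr4:76153781-76154060), had 12.8, 5.28 and 6.51 in enriched libraries, against 0.950, 1.35 and 1.81 in normally housed libraries. None of the 6 fell under 3-fold when any 1 library was left out, but the same libraries had put these regions on the 3-fold lists, so this is a description only. In the NeuN- region the normalised values of the enriched libraries (SD 4.03) spread more than in any other NeuN- region of these genes. In reads these libraries had 11, 2 and 12, which was not the widest spread.

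Ptprg had 4 H3.3 regions, 1 gained and 3 lost, and 3 of the 4 came from NeuN+ nuclei. After 30 min of KCl, a region in intron 2, 342 kb from the start (chr14:12728021-12728260), had 5.19, 5.26 and 1.03 in KCl libraries, against 19.0, 11.7 and 12.7 in control libraries. Without the third KCl library, which held 1 read, the control mean was 2.77-fold the KCl mean. In NeuN+ nuclei the gained region in intron 4, at 463 kb, had 29.8 and 27.4 in enriched libraries, against 6.02 and 7.19 in normally housed libraries. Its mean was 28.6 ± 1.72 in enriched and 6.6 ± 0.827 in normally housed nuclei (SD, n = 2 each). With 38 and 32 reads in enriched libraries it rested on more reads than any other H3.3 region of these genes. The lost region 10.4 kb before it, at 453 kb, had 7.06 and 6.85 in enriched libraries, against 22.6 and 22.6 in normally housed libraries. Those near-equal values came from 9 and 8 reads in enriched libraries and from 15 and 22 in normally housed libraries of unequal depth. In intron 2, at 242 kb (chr14:12627441-12627660), enriched libraries had 6.28 and 8.56, against 24.1 and 21.6 in normally housed libraries. The mean of the normally housed libraries was 2.67-fold that of the enriched ones without the first enriched library, and 2.91-fold without the first normally housed library.

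The self-binding adhesion phosphatases Ptprk, Ptprm and Ptprt had 5 H3.3 regions together. After 2 hr of KCl, a Ptprk region in intron 14, 478 kb from the start (chr10:28272541-28272800), had 3.68, 3.79 and 0 in KCl libraries, against 10.2, 12.5 and 17.2 in control libraries. The other 4 were all from NeuN- nuclei. In intron 1 of Ptprk, at 55.8 kb (chr10:27850321-27850520), enriched libraries had 5.82, 5.28 and 5.96, against 1.90, 0 and 0 in normally housed libraries. In intron 7 of Ptprm, at 365 kb (chr17:67339101-67339300), enriched libraries had 5.82, 5.28 and 5.42, against 0.950, 0 and 0 in normally housed libraries. In intron 17 of Ptprm, at 566 kb (chr17:67137961-67138160), enriched libraries had 1.16, 0 and 0, against 7.58, 6.08 and 6.33 in normally housed libraries, the opposite direction within the same gene. In intron 7 of Ptprt, at 613 kb (chr2:161873321-161873540), enriched libraries had 0, 0 and 1.08, against 6.63, 7.43 and 8.14 in normally housed libraries. In all 5 gained NeuN- regions of these genes the second enriched library had 5.28, which is 2 reads, and 46.8% of all 846 gained regions of that list also had exactly 2 reads there.

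Against the whole of each list, the directions at these genes were as follows. At 30 min, 0 of 3 regions were gained, where 20.1% of all 457 regions were. At 2 hr 2 of 6 were gained, where 14.4% of 689 were, and at 5 hr 0 of 2, where 44.2% of 667 were. In NeuN+ nuclei 1 of 4 was gained, where 71.8% of 1642 were, and in NeuN- nuclei 5 of 7, where 70.7% of 1196 were. With so few regions per list, these shares are counts only. In the authors' deposited table, the median log2 fold change of KCl over control was −1.92 at these genes and −1.86 over all regions at 30 min, −2.07 and −1.92 at 2 hr, and −1.82 and −1.64 at 5 hr. In the authors' deposited table, the median log2 fold change of enriched over normal housing was −1.66 at these genes and 1.83 over all regions in NeuN+ nuclei, and 2.53 and 2.64 in NeuN- nuclei. The smallest absolute log2 fold change in the authors' deposited table was 1.59 in each of these 5 lists. The sign of each median therefore only repeats the commoner direction among the regions it was taken over. In NeuN+ nuclei that direction was lost at these genes and gained over the whole list.

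The adjusted p in the authors' deposited table was 0.05 or less at 20 of the 22 regions. It ran from 0.0140 to 0.0303 at 30 min, where 98.5% of all regions reached 0.05, and from 0.0135 to 0.0210 at 2 hr, where 99.6% did. It was 0.0692 for Ptprn2 and 0.0851 for Ptprd in the authors' deposited table at 5 hr, where 3% did. In the authors' deposited table it ran from 0.0116 to 0.0368 in NeuN+ nuclei, where 97.8% reached 0.05, and from 0.00415 to 0.00776 in NeuN- nuclei, where 99.8% did. Absolute log2 fold changes in the authors' deposited table ran from 1.60 for Ptprn2 at 5 hr to 4.36 for Ptprt in NeuN- nuclei. That Ptprt region had 2 reads over all enriched libraries and 27 over all normally housed libraries.

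**Figure D2:**
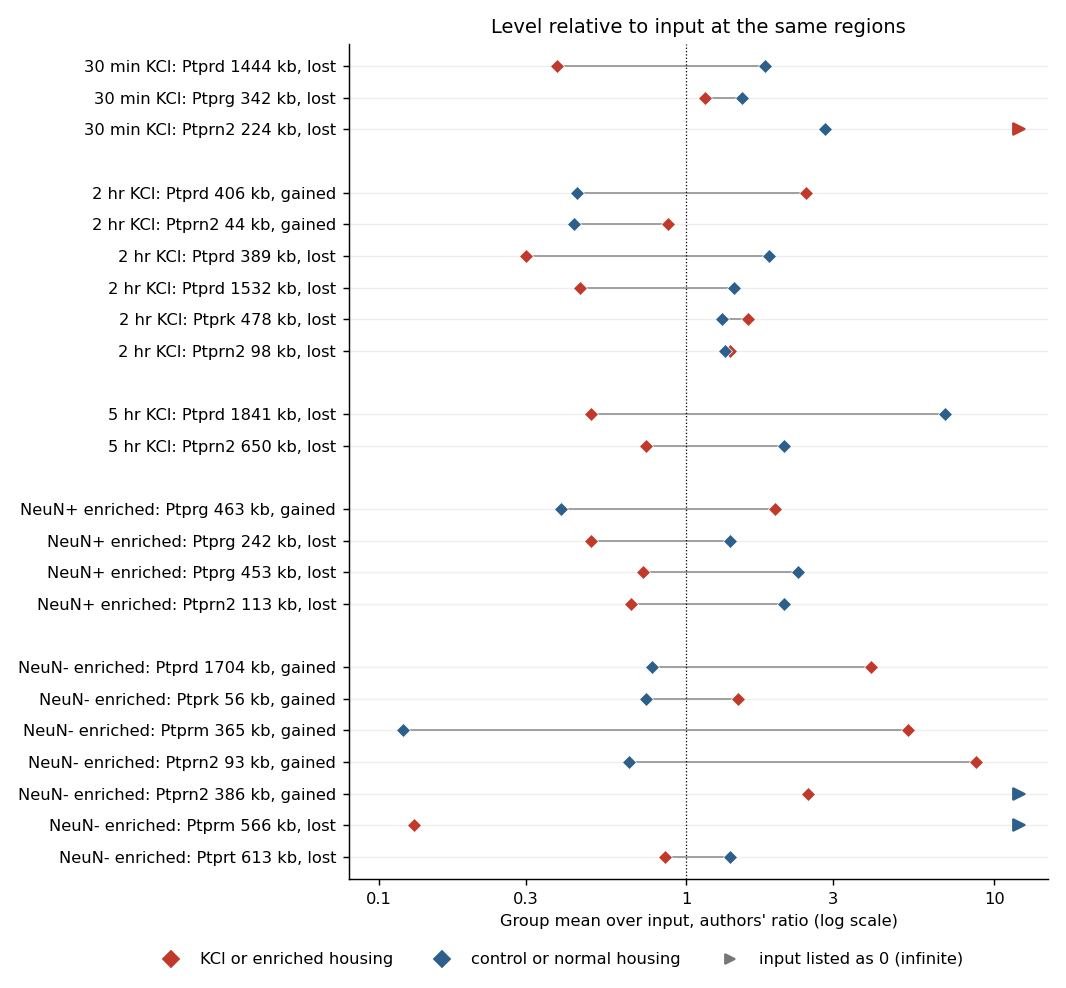
The ratio of each group mean to input, as the authors deposited it, on a log scale for the same 22 regions, with the dotted line at 1. Arrowheads stand for an input of 0. In 17 of the 19 regions with both ratios the ratio moved the same way as the count, and the exceptions are Ptprk and Ptprn2 lost at 2 hr.

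The authors' ratio of each group mean to input showed which of the 22 changes also held relative to input. The count that put a region on its list is the upper part of the ratio, which by itself makes a move in the same direction likelier, and input was 1 library per group in all these lists except NeuN+, with 2. Both ratios were finite for 19 regions, and 17 of these moved the same way as the count. At the Ptprg gained region of NeuN+ nuclei the ratio was 1.94 in enriched and 0.390 in normally housed nuclei. At the Ptprd region of 5 hr it was 0.490 in KCl and 6.92 in control cells. The exceptions were regions lost at 2 hr: Ptprk had a ratio of 1.59 in KCl and 1.30 in control cells, and Ptprn2 in intron 2 had 1.38 in KCl and 1.33 in control cells. Input was listed as 0 for 1 group of 3 further regions, in Ptprn2 at 30 min and in Ptprn2 and Ptprm in NeuN- nuclei, and no ratio can be formed there.

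**Figure D3:**
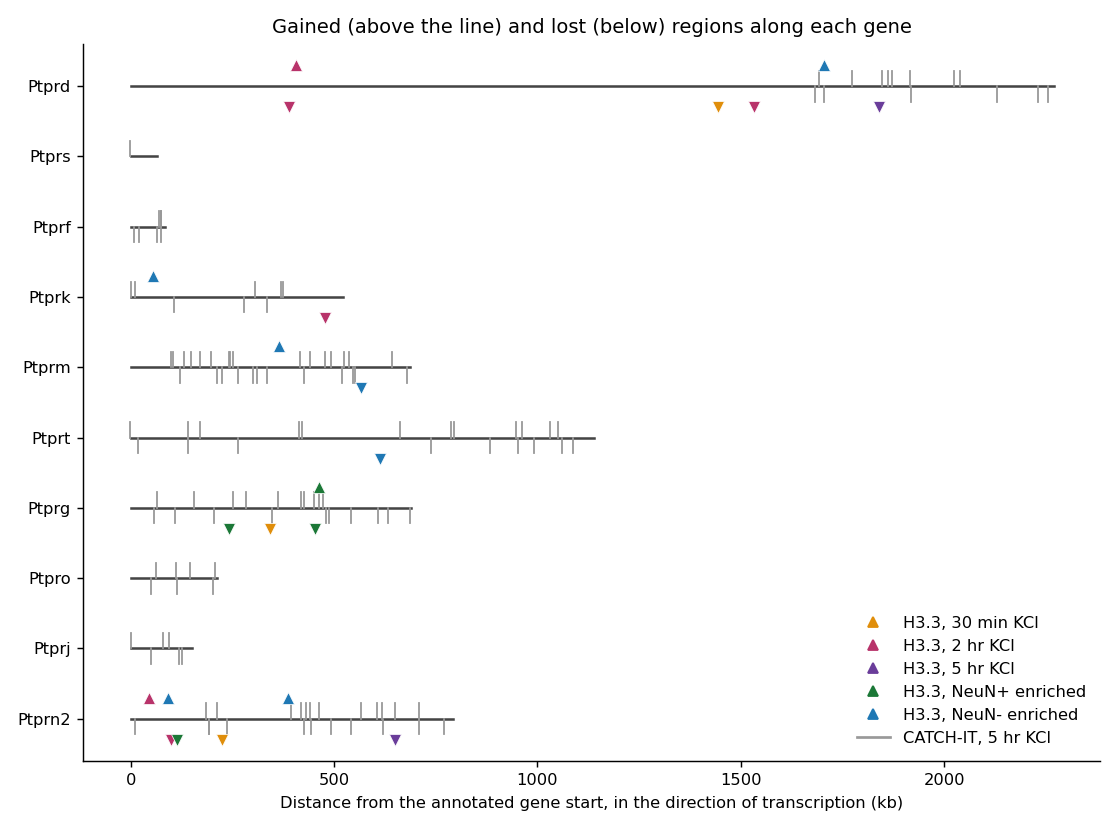
Each horizontal line is a gene drawn to scale from its annotated start, with distance in kb on the horizontal axis. Triangles are H3.3 regions and thin ticks are CATCH-IT regions, gained above the line and lost below it. H3.3 regions lie in the 6 longest genes, and the CATCH-IT regions assigned to Ptprd begin at 74.1% of its length.

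By position, 21 of the 22 H3.3 regions lay in introns and 1, in Ptprn2, touched a coding exon. None lay within 5000 bp of an annotated transcript start, and the nearest start was 26.7 kb away, at the Ptprd region of 5 hr. The regions fell in the 6 genes longer than 500 kb, and the 4 genes of 64.1 to 212 kb (Ptprs, Ptprf, Ptprj and Ptpro) had none. Across the genome, 67% of the 200 protein-coding genes of at least 500 kb held at least 1 H3.3 region of the 5 lists, against 22.7% of the 4140 genes of 50 to 250 kb. Per Mb of gene, Ptprn2 had 8.83 H3.3 regions and Ptprg 5.81, followed by Ptprk with 3.83, Ptprm with 2.91, Ptprd with 2.64 and Ptprt with 0.878. The pooled figure was 1.68 for all genes of at least 500 kb and 2.67 for those of 50 to 250 kb, so per Mb the shorter genes had more listed regions. These are counts of listed regions with no test, in genes that were picked knowing that they had some. The G+C content of the 22 regions ran from 31.0% to 56.0%, with a median of 45.3%.

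CATCH-IT listed many more regions. At these genes 74 were gained and 61 lost, so 54.8% were gained, against 57.3% of all 53020 listed regions. Ptprm led with 16 gained and 12 lost, followed by Ptprn2 with 12 and 11, Ptprt with 12 and 9, Ptprg with 10 and 10, and Ptprd with 8 and 6. Ptprk had 5 gained and 3 lost, Ptprf 3 and 4, Ptpro 4 and 3, Ptprj 3 and 3, and Ptprs 1 and 0. Every gene except Ptprs was thus listed in both directions. All 135 had an authors' adjusted p of 0.05 or less, as did 100% of the list, and in all 135 the groups did not overlap, as in 99.2% of the list.

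**Figure D4:**
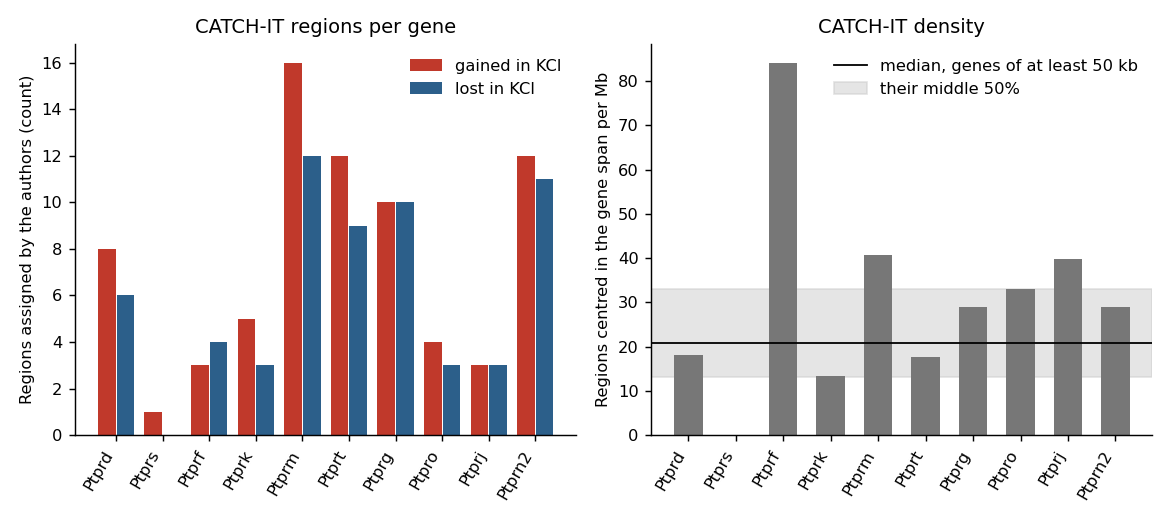
Left, the number of CATCH-IT regions gained or lost after 5 hr of KCl that the authors assigned to each gene. Right, the number of regions centred in the annotated gene span per Mb, with the median (20.8) and middle 50% (13.1 to 32.97) of the 4841 protein-coding genes of at least 50 kb. Ptprf stands at 84.1 per Mb and Ptprs at 0.

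The number of CATCH-IT regions mostly followed gene length. Over the annotated spans, 4841 protein-coding genes of at least 50 kb had a median of 20.8 regions per Mb, with the middle 50% between 13.1 and 32.97. Ptprd (18.1), Ptprt (17.6), Ptprk (13.4), Ptprg (29.0), Ptprn2 (29.0) and Ptpro (32.97) fell within that range or at its edge. Ptprj had 39.8 regions per Mb and Ptprm 40.7. Ptprf, a LAR family member of only 83.2 kb, had 7 regions or 84.1 per Mb, above 99.6% of those genes. Ptprs had none inside its span, its single region being centred at −804.5 bp from the start. The authors' gene model for Ptprd in this list covers only the 3′ part of the gene. Its 14 assigned regions lay at 74.1% to 99.4% of the annotated span, while 41 listed regions were centred somewhere in the span.

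The CATCH-IT regions were nearly all-or-none. The other group had 0 reads in all 61 lost regions and in 73 of the 74 gained ones, against 99.4% and 96.5% over the whole list. The exception was a Ptprm region (chr17:67288621-67289020) with 16.0, 6.39 and 48.9 in KCl libraries, against 0.320, 1.39 and 2.37 in control libraries. The group with reads had a median of 18 in gained regions and of 20 in lost regions, summed over its 3 libraries. More than 50% of those reads came from 1 library in 54 gained and 42 lost regions, that is 73% and 68.9%, against 71.8% and 61.7% over the whole list.

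**Figure D5:**
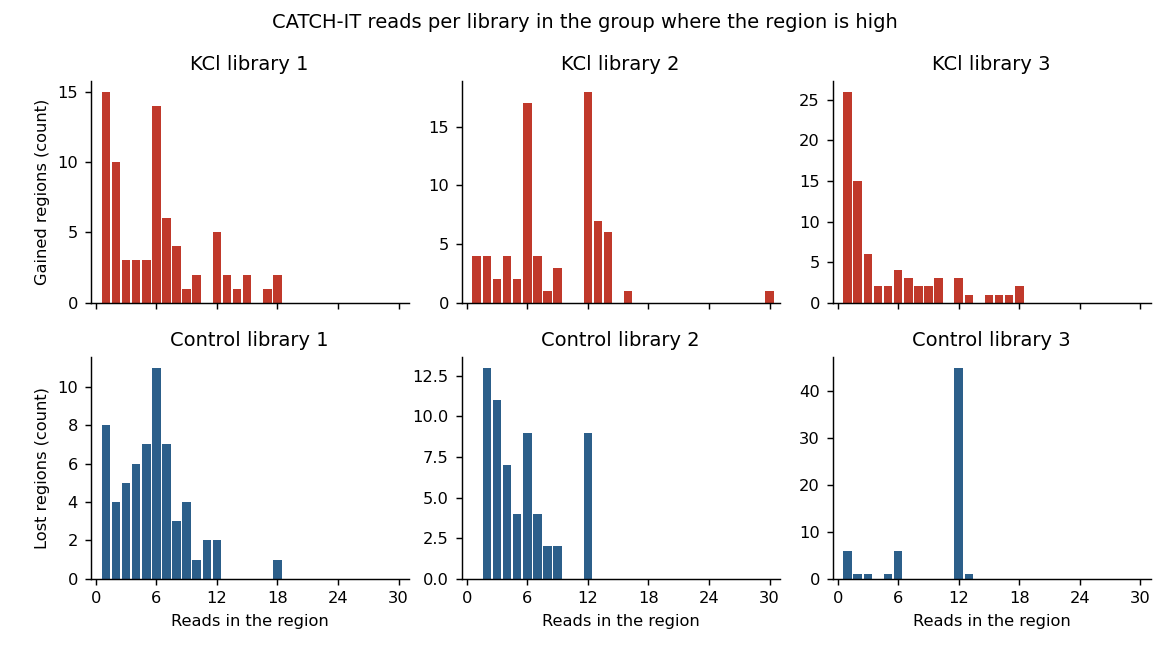
For each CATCH-IT library of the group that holds the reads, the number of gained (KCl, top) or lost (control, bottom) receptor phosphatase regions at each number of reads. Numbers pile up at 6 and 12, most of all in the third control library, with exactly 12 reads in 45 of 61 lost regions.

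Read numbers in these regions piled up at a few values, as the plot of reads per library shows. The third control library had exactly 12 reads in 45 of the 61 lost regions, and it did so in 67.6% of all lost regions of the list. The second KCl library had exactly 12 reads in 18 and exactly 6 in 17 of the 74 gained regions, against 23.2% and 20.2% of all gained regions. The name of the CATCH-IT list carries a duplicate setting of 6. What produced the piled-up numbers was not tested.

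Among the LAR family genes, the gained region of Ptprd with the smallest adjusted p (chr4:75832901-75833280, intron 13) had 6.68, 6.39 and 5.44 in KCl libraries, which is 5, 12 and 2 reads, against 0 in every control library. The lost one (chr4:75601701-75602020, intron 26) had 0 in every KCl library, against 1.89, 12.5 and 14.2 in control libraries. In Ptprf the gained region in intron 20 (chr4:117894501-117894880) had 8.02, 3.20 and 16.3 in KCl libraries, which is 6 reads in each, against 0 in every control library. The lost one in intron 2 (chr4:117955461-117955840) had 0 in every KCl library, against 2.21, 5.54 and 14.2 in control libraries. Regions of opposite direction also met at an internal Ptprf transcript start: a gained region over coding exon 21 (chr4:117890541-117890920) had 9.35, 1.60 and 5.44 in KCl libraries, against 0 in every control library. The lost region 140 bp from it (chr4:117890061-117890400) had 0 in every KCl library, against 0.630, 2.77 and 14.2 in control libraries. The single Ptprs region (chr17:56616521-56616900), upstream of the gene, had 2.67, 7.46 and 5.44 in KCl libraries, which is 2, 14 and 2 reads, against 0 in every control library.

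Among the self-binding phosphatases, 1 of 5 gained Ptprm regions that tied for the smallest adjusted p, the one with the largest difference of means (chr17:67451301-67451680, intron 2), had 16.0, 3.20 and 13.6 in KCl libraries, against 0 in every control library. The lost Ptprm region (chr17:67402881-67403260, intron 5) had 0 in every KCl library, against 2.84, 11.1 and 14.2 in control libraries. In intron 5 of Ptprt (chr2:162064781-162065160) KCl libraries had 8.02, 3.20 and 24.5, against 0 in every control library. In intron 1 of Ptprt (chr2:162223521-162223900) KCl libraries had 0, against 1.89, 12.5 and 14.2 in control libraries, the same 6, 9 and 12 reads as in the lost Ptprd region. For Ptprk, KCl libraries had 17.4, 2.13 and 2.72 at a gained region in intron 7 (chr10:28162741-28163120), against 0 in every control library. Also in intron 7, 0 was found in every KCl library at a lost region (chr10:28129901-28130260), against 0.950, 16.6 and 3.55 in control libraries. The CpG-rich region at the start of Ptprk had 1.34, 6.39 and 2.72 in KCl libraries, that is 1, 12 and 1 reads, against 0 in every control library.

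The remaining genes showed the same kind of values. In intron 4 of Ptprg (chr14:12847561-12847940) KCl libraries had 22.7, 4.79 and 10.9, that is 17, 9 and 4 reads, against 0 in every control library. The lost Ptprg region in intron 2 (chr14:12589581-12589940) had 0 in every KCl library, against 2.21, 6.93 and 14.2 in control libraries. Ptpro had neighbours 1.84 kb apart in intron 1. Its gained region (chr6:137312761-137313140) had 8.02, 3.20 and 21.7 in KCl libraries, against 0 in every control library, and its lost region (chr6:137314981-137315260) had 0 in every KCl library, against 1.58, 8.32 and 14.2 in control libraries. In Ptprj the gained region lay 894 bp inside the gene start (chr2:90419721-90420100) and had 8.02, 3.20 and 16.3 in KCl libraries, against 0 in every control library. The lost Ptprj region in intron 1 (chr2:90371441-90371820) had 0 in every KCl library, against 0.320, 16.6 and 1.18 in control libraries, so that 12 of its 14 reads were from 1 library. In intron 12 of Ptprn2 (chr12:118289161-118289540) KCl libraries had 8.02, 3.20 and 19.0, against 0 in every control library. Over coding exon 3 of Ptprn2 (chr12:117960641-117961020) KCl libraries had 0, against 2.84, 9.70 and 14.2 in control libraries.

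Of the 135 CATCH-IT regions, 125 were intronic, 5 touched a coding exon, 3 a non-coding exon and 2 lay outside the annotated gene. Within 1000 bp of an annotated transcript start there were 5, in Ptprs, Ptprk, Ptprj and Ptprf, of which 4 were gained and 1, in Ptprf, was lost. Within 5000 bp there were 12. The ratio to input was finite for both groups in 16 of the 135 regions, and in all 16 it moved the way of the count. Where the other group had 0 reads its finite ratio is 0, so the direction was fixed. Only the Ptprm region at chr17:67288621-67289020 had reads in both groups, with a ratio of 42.8 in KCl and 2.76 in control cells. The ratios therefore say almost nothing more than the counts. Median G+C content was 44.3% in gained and 43.8% in lost regions of these genes, against 43.2% and 42.7% in the whole list.

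Regions from different lists never overlapped, and 11 pairs lay within 10 kb of each other, 4 of the same direction and 7 of opposite directions. The closest pair was in Ptprd, where the H3.3 region gained in NeuN- nuclei lay 80 bp from a CATCH-IT region lost after KCl (chr4:76154141-76154440). In Ptprg the CATCH-IT region gained after KCl at chr14:12837481-12837900 was 640 bp from the H3.3 region lost in NeuN+ nuclei. The one in intron 4 described above was 1.22 kb from the H3.3 region gained there. In Ptprn2 the H3.3 region lost at 5 hr of KCl lay 1.54 kb from a CATCH-IT region gained at the same time. The 2 methods differ in what they measure and the 2 lists in their normalisation, so these distances are given as positions only.

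Of the other 11 receptor phosphatase genes of the family, Ptpra, Ptpre and Ptpru were in the H3.3 lists. The genes followed above were picked knowing that they had regions, so the sets are not compared. Ptpra and Ptpre, a related pair with short surface segments, each had a region lost after 2 hr of KCl. At Ptpra it had 1.84, 4.55 and 6.81 in KCl libraries, against 17.3, 14.2 and 16.0 in control libraries. Ptpru, of the same family as Ptprm, had a region gained in NeuN+ nuclei, with 18.1 and 22.3 in enriched libraries, against 3.01 and 7.19 in normally housed libraries. Of all listed regions, 14.4% were gained at 2 hr and 71.8% in NeuN+ nuclei. In CATCH-IT 9 of the 11 genes had 19 gained and 14 lost regions, in a list with 57.3% gained.

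Of 20 genes for surface partners, Lrfn5 and Ntrk3 had a region lost after 30 min of KCl, the heparan sulphate proteoglycan gene Sdc3 after 2 hr, and Ntrk3 again after 5 hr. The Ntrk3 region of 5 hr is listed without an adjusted p of 0.05 or less. Of all listed regions, 20.1% were gained at 30 min, 14.4% at 2 hr and 44.2% at 5 hr. Ntrk3 encodes the neurotrophin receptor TrkC, which binds Ptprs. Its 30 min region had 3.46, 6.31 and 4.12 in KCl libraries, against 17.8, 14.2 and 12.7 in control libraries. In NeuN- nuclei 3 contactin genes each had a gained region, in a list with 70.7% gained. Contactins bind Ptprg, which itself had 0 regions in that list. Cntn3 had 8.14, 13.2 and 5.42 in enriched libraries, against 2.84, 0.680 and 0.900 in normally housed libraries. Cntn4 had 8.14, 5.28 and 7.05 in enriched libraries, against 0.950, 2.03 and 0 in normally housed libraries. Cntn5 had 5.82, 13.2 and 5.96 in enriched libraries, against 0.950, 2.03 and 0.900 in normally housed libraries. The groups did not overlap at these 3 regions, as in 100% of the NeuN- list.

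Of 14 genes for partners inside the cell, such as the liprins that tether LAR family phosphatases to the presynaptic active zone, 3 were listed at 30 min. Trio, which binds Ptprf, had a gained region, with 11.2, 13.7 and 12.4 in KCl libraries, against 6.34, 1.67 and 1.95 in control libraries. Ctnnd2 (delta-catenin) and Erc1 (an active zone protein) each had a region lost at 30 min. Erc2 and the liprin gene Ppfia1 each had a region lost at 2 hr. Rims2, an active zone scaffold, had a region lost at 5 hr, with 2.95, 4.39 and 2.98 in KCl libraries, against 9.44, 15.4 and 12.6 in control libraries, but its adjusted p was above 0.05. In NeuN+ nuclei Erc1 and Rims2 each had a lost region. In NeuN- nuclei Erc1 had a gained region and Ctnnd2 a lost one. Of all listed regions, 20.1% were gained at 30 min, 14.4% at 2 hr and 44.2% at 5 hr. The share was 71.8% in NeuN+ and 70.7% in NeuN- nuclei. In CATCH-IT all 14 genes were listed, with 59 gained and 40 lost regions, in a list with 57.3% gained.

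Markers of cell types were rarely listed, and the lists hold no level for unlisted genes, so the labelled cell types could not be checked. In the 2 hr list and the 5 hr H3.3 list, none of the neuron, astrocyte, oligodendrocyte, microglia and endothelial markers searched had a region. In NeuN+ nuclei the astrocyte gene Aldh1l1 had a gained region, with 23.6 and 24.0 in enriched libraries, against 3.01 and 9.25 in normally housed libraries, and the oligodendrocyte gene Mbp had one with 18.8 and 23.1 against 9.03 and 4.11. These were 1 of 5 astrocyte and 1 of 5 oligodendrocyte markers, while none of 5 neuron, 5 microglia and 3 endothelial markers was listed there. In NeuN- nuclei the microglial gene P2ry12 had a lost region, with 1.16, 0 and 1.08 in enriched libraries, against 7.58, 6.08 and 7.23 in normally housed libraries. At 30 min the neuron markers Syt1 and Snap25 had lost regions and the endothelial marker Pecam1 a gained one. The part that the cell makeup of the fractions had in the results at the receptor phosphatase genes was not tested.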

How the data were processed

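The authors deposited 7 lists of regions, each at least 200 bp long, called as different at 3-fold or more between 2 groups. The build was mm9 and reads were handled with bedtools 2.16.2 and Bowtie 0.12.7, per the submitters' processing notes. The sources used here do not give the region caller. Per the file headers each region has normalised counts per library without library names, a group mean (signal), a ratio to input, a log2 fold change, a p-value and an adjusted p-value, all used as the authors deposited them. Normalisation was within each list, so levels are never compared across lists.

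Regions were assigned to genes by the authors' gene columns and placed with GENCODE vM1, because in the 30 min, 2 hr and NeuN- lists the authors' distances run from the low-coordinate end of minus-strand genes (100% of them), which is the annotated 3′ end. Reads per value were recovered as whole multiples of 1 step per library within 0.1 reads, for 100% of low values, and the step finder recovered 20 of 20 simulated libraries at 457 and at 53020 regions. No count test was run, because only called regions are listed. Analyses used Python 3.11.15 with pandas 2.3.3. The members, lists and rules were chosen with earlier results of these data known. Named were every H3.3 region and, in CATCH-IT, per gene the gained and the lost region of smallest adjusted p (ties, among gained regions of Ptprm, Ptprg and Ptprt, went to the larger difference of group means) and any within 1000 bp of a start. HA and embryonic NeuN+ samples were not analysed here, and unused columns of per-sample values numbered 0.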

Additional observations from a re-analysis of the deposited data

Results flagged for a closer look

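At Ptprn2, the 1 H3.3 region listed in NeuN+ nuclei was lost after enriched housing, and the 2 listed in NeuN- nuclei were gained. Of all regions, 71.8% were gained in the NeuN+ list and 70.7% in the NeuN- list. The gained regions thus had the commoner direction of their list. Without the second normally housed library the NeuN+ region was 2.96-fold lower, under the listing threshold of 3-fold. In the authors' deposited table the log2 fold change of enriched over normal housing was −1.81 at the region 113 kb from the gene start in NeuN+ nuclei. In the authors' deposited table it was 2.45 at the region 92.7 kb from the start and 2.53 at the region over exon 7 in NeuN- nuclei. The difference between the fractions was not tested. The regions do not overlap, so no stretch of Ptprn2 is known to move in both directions.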

How the results depend on the processing

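Of 155 alternative counts for 14 results, 140 stayed within 1.5 times the reported count. Many of these could hardly differ, so the number 140 does not measure robustness. Most alternatives only take regions away, and the gained counts at 30 min and at 5 hr were already 0. The rule that groups do not overlap held for at least 99.2% of every list that had a member. With an absolute log2 fold change of at least 2, lost regions at 30 min numbered 1, gained ones at 2 hr 1, lost ones at 5 hr 1 and lost ones in NeuN+ nuclei 0. An authors' adjusted p of 0.05 or less left 0 lost regions at 5 hr. By the ratio to input, where finite, 2 hr had 4 gained and 2 lost regions, CATCH-IT 13 gained and 3 lost, and NeuN- nuclei 1 lost; fewer regions have a finite ratio. Leaving out 1 library at a time, 2 to 3 lost regions remained past 3-fold at 30 min, 1 to 2 gained and 4 lost at 2 hr, 1 to 2 lost at 5 hr, 2 to 3 lost and 1 gained in NeuN+ nuclei, 5 gained and 2 lost in NeuN- nuclei, and 74 gained and 61 lost in CATCH-IT, where the other group at 0 fixes the outcome. All counts with 1 library left out reuse the values that listed the regions, so they are a description only. Overlapping pairs numbered 0 at 1 bp or 50% of the shorter region, and 11 at up to 10000 bp. Regions near a transcript start went to 12 at 5000 bp. Counting every listed region inside the annotated spans, an alternative added after seeing the data, gave 85 gained and 75 lost CATCH-IT regions, mostly through Ptprd. No paired analysis was possible because the values carry no library names. Single regions rest on few reads per library, which limits their precision.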
